A study of Mus musculus with 4 samples.

Results

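The forkhead genes Foxa1, Foxa2, Foxi2, Foxi3, Foxf1, Foxf2, Foxc1, Foxc2, Foxd1 and Foxl1 were followed through the cells of the mouse pharyngeal region and heart at E9.5. They were found by gene symbol, and all 10 were present among the 32285 genes of the count files. Single cells were profiled in 4 libraries of GFP-positive, DAPI-negative cells sorted by FACS from microdissected tissue that reached from the first pharyngeal arch onward and held the heart. The genotypes were cHet (Tbx1Cre/+; Kmt2d F/+; GFP F/+) and cKO (Tbx1Cre/+; Kmt2d F/F; GFP F/+), with 2 libraries each from embryos labelled as outbred Swiss Webster. Each library came from 4 pooled embryos in Rep1 (Next GEM kit) and from 3 pooled embryos in Rep2 (GEM-X kit), so the library was the replicate and n = 2 per genotype. The Cre was inserted into Tbx1, and cells of both genotypes therefore carried 1 functional Tbx1 allele. GFP marks cells in which the Cre was active at any earlier time, and cells outside that lineage were not sorted.

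Forkhead factors are transcription factors that bind DNA through a winged-helix domain. Foxa factors can open closed chromatin and act in endoderm, and Foxi factors act in surface ectoderm and pharyngeal epithelium. Foxf and Foxl1 genes are targets of Hedgehog signals sent from epithelium to mesenchyme. Foxc1 and Foxc2 act in mesenchyme, paraxial mesoderm, vessels and the outflow tract, and Foxd1 acts in stromal mesenchyme. Kmt2d, the gene deleted in the cKO, encodes a histone H3 lysine methyltransferase of enhancers.

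Barcodes with at least 3000 genes numbered 5902 (Rep1 cHet), 6288 (Rep1 cKO), 9358 (Rep2 cHet) and 11921 (Rep2 cKO) after the other filters, and their median depth lay between 17241 and 22960 unique molecular identifiers (UMIs, each standing for 1 captured transcript). The libraries held between 179454146 and 234726019 UMIs. Before filtering, cHet Rep1 had 37093 barcodes, against 9307 (cKO Rep1), 13192 (cHet Rep2) and 16775 (cKO Rep2). Kept cells held 123274174 of the 206975655 UMIs of cHet Rep1, a smaller part than in any other library. They held 153956594 of 179454146 in cKO Rep1, 204025696 of 222401516 in cHet Rep2 and 210590144 of 234726019 in cKO Rep2. The source of this difference was not tested. No forkhead gene was used to cluster the cells, which gave 26 clusters. Noncoding genes close to them, such as Fendrr near Foxf1 and 1700018A04Rik near Foxf2, were not left out. Clusters were named like a type from marker genes, or kept their number, and 22 groups had at least 20 cells in every library. The named groups were like endoderm, surface ectoderm, otic vesicle, neuronal cells, neural crest, anterior and posterior second heart field (aSHF and pSHF), cardiac muscle, branchiomeric muscle progenitors (BrM), multilineage primed progenitors (MLP) in 2 groups, endothelial progenitors, endothelium, paraxial mesoderm and mesenchyme. The otic vesicle-like group joined 2 clusters that split by replicate. Cluster 25 held 76 (cHet) and 91 (cKO) cells of Rep1 and 0 of Rep2, and cluster 20 held 9 and 4 cells of Rep1 and 130 and 273 of Rep2, so values of this group compare different clusters between replicates. Among kept cells, 12 barcodes were shared by the Rep1 libraries and 41 by the Rep2 libraries. Kmt2d was counted over all cells at 19.3 (cHet) and 17.2 (cKO) CPM in Rep1 and, in Rep2, at 21.3 and 18.9 CPM, scaled by TMM. Such UMIs come from the 3′ end of the transcript and do not tell a deleted from an intact allele, so they leave the genotype unchecked.

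Foxa1 (GRCm38 chr12:57540628-57546916, minus strand) and Foxa2 (chr2:148042877-148046969, minus strand) had their highest level of the 22 groups in the endoderm-like cells. Their sequences just upstream of the RefSeq transcription start are printed because both genes led in the same cell type. Each window has 200 bases of GRCm38, runs 5′ to 3′ on the gene's strand from base -210 to base -11, and overlaps no annotated exon. The Foxa1 window (chr12:57546122-57546321) lies within an intron of a longer Foxa1 transcript, and the Foxa2 window is chr2:148046980-148047179. Capitals mark the forkhead core motif TGTTTAC or its reverse complement GTAAACA, and the CCAAT box or its reverse complement ATTGG.
Foxa1: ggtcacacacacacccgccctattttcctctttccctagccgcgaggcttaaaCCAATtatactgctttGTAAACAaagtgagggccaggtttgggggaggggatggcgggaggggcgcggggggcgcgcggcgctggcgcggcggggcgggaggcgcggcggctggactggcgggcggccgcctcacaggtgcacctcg
Foxa2: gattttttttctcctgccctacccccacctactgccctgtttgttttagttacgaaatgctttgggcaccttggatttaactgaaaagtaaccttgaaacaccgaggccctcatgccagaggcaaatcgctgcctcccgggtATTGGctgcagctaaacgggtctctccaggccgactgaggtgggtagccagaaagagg
In the Foxa1 window the forkhead core started at -141 and the CCAAT box at -157, and in the Foxa2 window the CCAAT box started at -68. Searched on both strands of the 250 bases before each start, the forkhead core was in 3.17% and the CCAAT box in 33.8% of the 32851 RefSeq promoters of GRCm38. RefSeq windows were at hand for 7 of the 10 members, in 9 windows, of which 1 held the forkhead core. A match of letters is a description and does not show that a factor binds.

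Foxa1 was found at 26.1 (Rep1 cHet), 24.8 (Rep1 cKO), 33.5 (Rep2 cHet) and 38.4 (Rep2 cKO) counts per 1e+06 summed UMIs of a type (CPM, without further scaling) in the endoderm-like cells. The next type, cluster 3, ranged from 0.433 to 0.683 CPM, so no library of the endoderm overlapped it. These endoderm-like cells held 88.5% of the Foxa1 UMIs of the 22 groups. A UMI of Foxa1 was detected in 33.8% to 41.8% of them, and in 12.7% to 14.7% when every cell was thinned to 5000 UMIs. In endothelium-like cells of similar depth, Foxa1 had 0 UMIs in all 4 libraries, which allows a share of cells with a UMI of up to 0.535% to 1.26% (3 counts of the cells).

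Foxa2 was also highest of the 22 groups there, with 12.3, 16.3, 23.7 and 22.7 CPM in endoderm-like cells, in the same order of libraries. The next of these groups, otic vesicle, held Foxa2 at 0.191 to 1.00 CPM. Cluster 24, led by neural genes and left out of the 22 because it had at most 2 cells in each Rep2 library, held it in Rep1 at 17.0 (cHet) and 4.59 (cKO) CPM, the former above the endoderm of that library. Between 14.7% and 23.3% of the endoderm-like cells had a UMI of Foxa2, and between 6.45% and 7.35% after thinning. The endoderm name rested on Pax9, Pax1, Nkx2-3, Shh, Ripply3 and Sox2. Other markers of the list were low there, with Nkx2-1 at 0 in both Rep1 libraries and Hhex at 0.512 to 13.9 CPM.

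Foxi2 (chr7:135410308-135413622), a regulator of cranial ectoderm, marked the surface ectoderm-like cells. Its level there was 105 (Rep1 cHet), 127 (Rep1 cKO), 174 (Rep2 cHet) and 218 (Rep2 cKO) CPM, and these cells held 93.8% of its UMIs. The neuronal-like cells came next at 4.88 to 10.2 CPM and overlapped the endoderm-like cells at 1.40 to 5.45 CPM. A UMI of Foxi2 was detected in 75.7% to 88.2% of the ectoderm-like cells and in 35.1% to 60.3% of them after thinning. In mesenchyme-like cells, with a median depth at least as great in every library, the share was 0.342% to 0.802%. The ectoderm markers Trp63, Wnt6, Tfap2a and Pax8 were found, while Grhl3 and Sp8 did not pass 1.83 CPM.

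Foxi3 (chr6:70956531-70961066), required for pharyngeal arch and placode development, was scarce and was shared by both epithelia. In endoderm-like cells it was counted at 6.15, 4.24, 7.91 and 4.82 CPM from 12, 7, 35 and 31 UMIs. In surface ectoderm-like cells it was counted at 3.20, 1.27, 6.33 and 5.81 CPM, which overlapped the endoderm. Thinned to 5000 UMIs, at most 2.52% of the endoderm-like cells had a UMI of Foxi3, so the thinned level of 2.79 CPM lay near the limit of detection. MLP-like cells, a mesodermal group, came next at 0.226 to 1.44 CPM. No Foxi3 UMI was found in the otic vesicle-like cells, which held 12894499 UMIs in all and allowed a level of up to 0.233 CPM (3 counts over the 4 libraries, for counting error only).

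**Figure D1:**
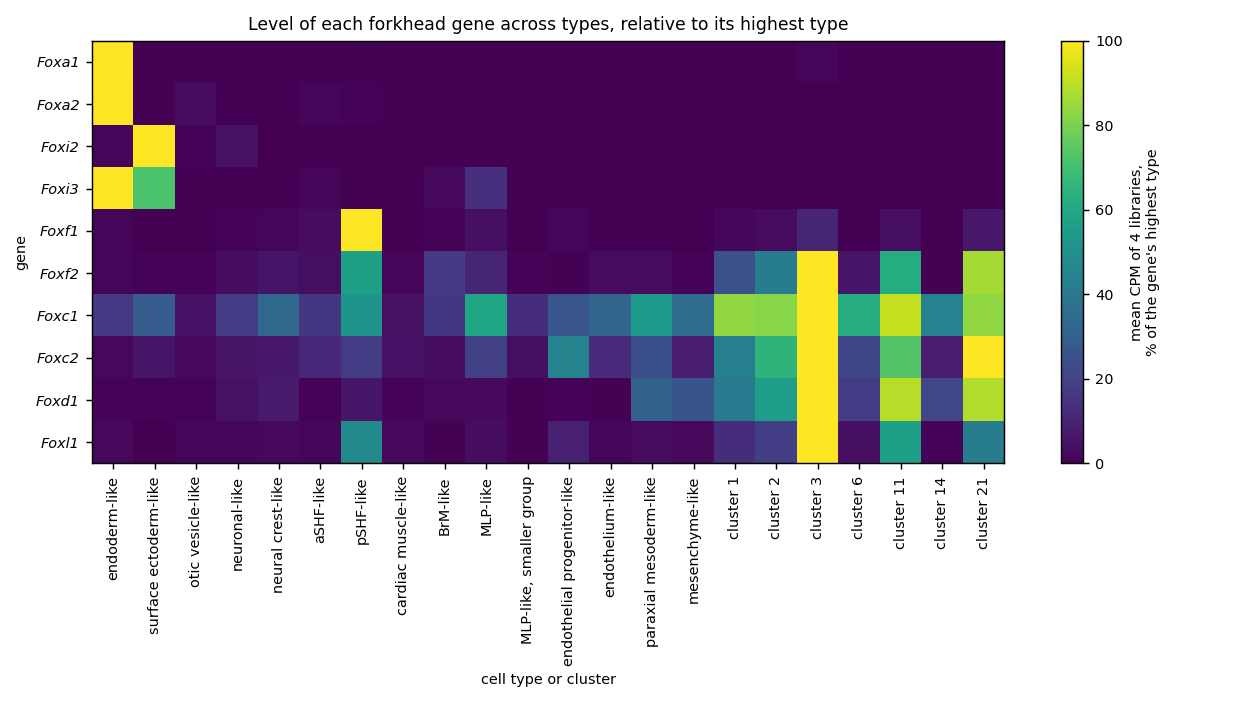
Heat map of the 10 forkhead genes (rows) over the 22 cell types and clusters (columns); color gives the mean CPM of 4 libraries as a percentage of the gene's highest type. Foxa1, Foxa2, Foxi2 and Foxf1 each have 1 bright type, and Foxi3 has endoderm and surface ectoderm. The other 5 genes are spread over clusters 3, 21, 11, 2 and 1 and other groups.

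The levels in the 3 epithelia were compared with edgeR's quasi-likelihood test on summed counts, with the library as a block and Benjamini-Hochberg adjustment over all genes. Because the cell groups were clustered on other genes of the same cells, a called difference describes these groups. For a member that passed the low-count filter only through the type where it is high, the filter itself favoured a difference. The size of such a difference is given with no p. Foxa1 was such a member, with 487 UMIs in endoderm-like and 3 in ectoderm-like cells, a ratio per total UMIs of 251 (95% counting interval 85.3 to 1220). Foxa2 had 302 and 3 UMIs, a ratio of 155 (interval 52.7 to 758). Foxi2 differed the other way, by -6.31 ± 0.22 (log2, SE), as did Foxc2 by -1.46 ± 0.31. Foxc1, Foxi3 and Foxd1 passed the filter in both types, and of these 3 Foxc1 was called (adjusted p under 0.05), where 21.3% of all genes were. It was lower in the endoderm by 0.85 on the log2 scale, with an SE of 0.14 (adjusted p = 0.0006061).

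Foxi3 was not called between endoderm and ectoderm, with a log2 difference of 0.36 ± 0.28 (adjusted p = 0.411), nor was Foxd1, with 0.27 ± 0.33 (adjusted p = 0.626). The otic vesicle was low in Foxa1, Foxa2, Foxi2, Foxi3 and Foxc1, each against its leading epithelium, and Foxc1 alone passed the filter within it. Foxd1, at 1.15 to 11.5 CPM in the otic vesicle, overlapped the endoderm and the surface ectoderm and was called against neither. Foxc2 was not called against the endoderm. Foxc1 was called against the surface ectoderm, with a difference of -2.76 ± 0.24 (40.9% of all genes were called), and against the endoderm, with -1.92 ± 0.33 (23.3% of all genes). The other members had too few UMIs there for a test of their own. Against the surface ectoderm Foxi2 differed by -6.83 ± 0.17 and Foxc2 by -1.67 ± 0.43, and Foxi3 was at least 20.6-fold lower by the 3-count limit. Against the endoderm, Foxa1 had 1 UMI in the otic vesicle, a ratio of 434 with an interval from 77.6 to 1.718e+04. Foxa2 differed by -5.31 ± 0.37, and Foxi3 was at least 25.3-fold lower in the otic vesicle.

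**Figure D2:**
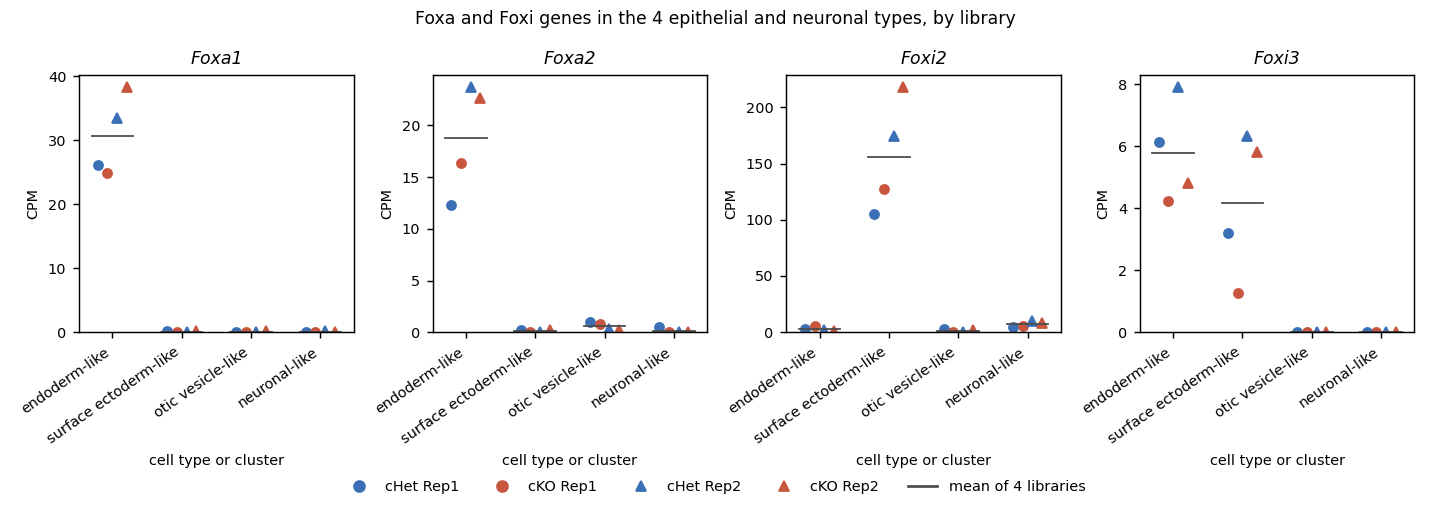
CPM of Foxa1, Foxa2, Foxi2 and Foxi3 in endoderm-like, surface ectoderm-like, otic vesicle-like and neuronal-like cells. Points are the 4 libraries, by color for genotype and by shape for replicate, and lines are means. Of the types plotted, Foxa1, Foxa2 and Foxi2 have 1 far above the others in every library, and the Foxi3 points of endoderm and surface ectoderm overlap.

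Foxf1 (chr8:121084386-121088144), a factor of visceral mesoderm, was the member that marked the pSHF. Its level in pSHF-like cells was 126 (Rep1 cHet), 139.6 (Rep1 cKO), 209.7 (Rep2 cHet) and 256 (Rep2 cKO) CPM. Both Rep2 libraries were above both Rep1 libraries, and all 4 were above every other type, of which cluster 3 was next at 15.03 to 24.0 CPM. The pSHF-like cells held 71.5% of the Foxf1 UMIs. A UMI was detected in 78.3% to 86.9% of them (43.4% to 63.0% after thinning), against 0.106% to 0.535% of the mesenchyme-like cells. The pSHF name rested on Tbx5, Osr1, Aldh1a2, Hoxb1 and Wnt2.

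Foxf2 (chr13:31625816-31631403), the related gene of palate and gut mesenchyme, was highest in clusters that no marker list named. Its levels were 25.2, 27.0, 48.3 and 62.7 CPM in cluster 3, which was led by Adamtsl1, Vtn, Sparcl1 and Lum. Cluster 21, led by the smooth muscle genes Tagln, Myl9 and Acta2, held Foxf2 at 18.8 to 54.9 CPM. Cluster 11, led by Vtn and Sparcl1, held it at 14.8 to 34.8 CPM and the pSHF at 11.2 to 36.7 CPM. These 4 groups overlapped each other, and in each the Rep2 libraries were above the Rep1 libraries. In BrM-like cells Foxf2 was at 4.09 to 10.2 CPM.

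Foxl1 (chr8:121127940-121130644), a gene of mesenchyme beneath epithelia, was highest in cluster 3 with 18.7, 19.7, 26.8 and 30.8 CPM. No library of cluster 3 overlapped cluster 11, at 9.09 to 17.5 CPM. Cluster 11, the pSHF (6.62 to 16.2 CPM) and cluster 21 (7.52 to 13.7 CPM) overlapped each other, and all were above cluster 2 at 3.05 to 5.52 CPM.

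Foxf1 and Foxf2 were higher in the pSHF than in the aSHF, the nearest pair of heart field groups. The aSHF name rested on Isl1, Rgs5, Tnc, Hand2 and Nkx2-6. Fgf10, Fgf8 and Tbx1, also in that list, did not pass as markers. Tbx1 was at 25.4 to 42.6 CPM in the aSHF, and at 54.3 to 85.5 CPM (TMM-scaled) over all cells. Foxf1 was found at 2.77 to 9.20 CPM in the aSHF and was higher in the pSHF by 4.97 ± 0.08 (log2, adjusted p = 1.151e-12). Foxl1, at 0.231 to 0.576 CPM in the aSHF, passed the filter only through the pSHF and differed by 4.73 ± 0.23. Foxf2, at 0.803 to 2.11 CPM in the aSHF, was higher by 3.95 ± 0.15 (adjusted p = 8.532e-10). Foxc1, Foxc2 and Foxd1 were higher as well, by 1.66 ± 0.09, 0.66 ± 0.12 and 2.85 ± 0.30, so the 5 members that passed the filter in both groups were called, where 39.6% of all genes were.

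Foxc1 (chr13:31806633-31812476) was the most widely distributed member and was tested in all 22 groups. Its level was 98.8, 110.6, 130.3 and 149 CPM in cluster 3, and clusters 11, 1, 21 and 2 followed with overlapping ranges between 83.0 and 133 CPM. In the MLP-like cells it was at 57.5 to 86.0 CPM and in the endothelium-like cells at 31.1 to 46.1 CPM. It was lowest in the otic vesicle (1.98 to 11.5 CPM) and in cardiac muscle (2.66 to 8.29 CPM). A UMI of Foxc1 was detected in 80.6% to 89.3% of the cells of cluster 3 and, in the otic vesicle-like cells, in 5.26% to 18.8%. In the order of its 10 highest groups, each group overlapped the next. Barcodes with under 1000 genes held Foxc1 at 41.2 to 60.0 CPM, above its level in the otic vesicle and cardiac muscle. Whether these barcodes are intact cells was not tested.

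Foxc2 (chr8:121116171-121118895) was more restricted. It was found at 84.4, 79.4, 102.9 and 104.7 CPM in cluster 3 and at 83.9 to 97.0 CPM in cluster 21. These groups overlapped. Cluster 11, at 57.0 to 79.6 CPM, was below every library of cluster 21 and overlapped cluster 3, where the lowest library was at 79.4 CPM. The endothelial progenitor-like cells, named from Etv2, Tal1, Lmo2 and Sox7, held Foxc2 at 36.4 to 50.8 CPM. Its mean was lowest in the otic vesicle, at 0.395 to 5.50 CPM, which overlapped the endoderm at 1.54 to 3.63 CPM.

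Foxd1 (chr13:98354242-98359305) had a steep order of levels over the groups. It was counted at 413, 439, 452 and 448 CPM in cluster 3, where 99.3% to 99.4% of the cells had a UMI and 85.2% to 87.3% after thinning. Clusters 11 (354 to 422 CPM) and 21 (337 to 433 CPM) overlapped cluster 3. Below them came cluster 2 (224 to 256 CPM) and cluster 1 (175 to 186 CPM), with no overlap at either step, and then paraxial mesoderm (101 to 155 CPM) and mesenchyme (105 to 125 CPM), which overlapped. At the lower end, endothelium-like cells held Foxd1 at 1.21 to 3.20 CPM, with a UMI in 2.48% to 5.83% of the cells.

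**Figure D3:**
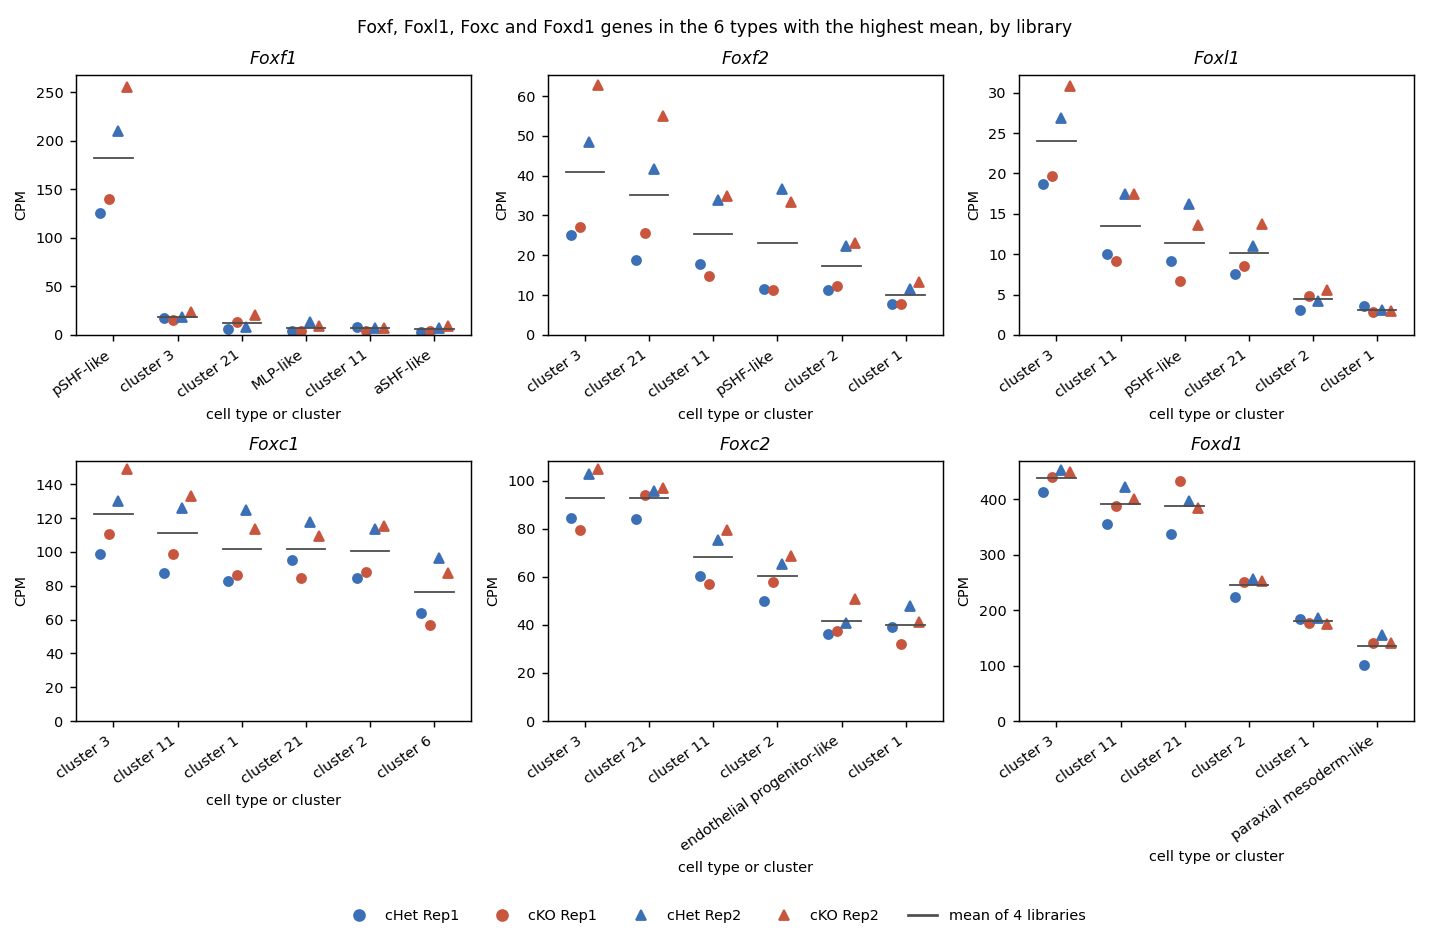
CPM of Foxf1, Foxf2, Foxl1, Foxc1, Foxc2 and Foxd1 in the 6 types or clusters with the highest mean of each; points are the 4 libraries, by color for genotype and by shape for replicate, and lines are means. Foxf1 stands apart in the pSHF, at 126 to 256 CPM, while the other 5 genes have their highest mean in cluster 3 and fall off through other clusters, with overlapping libraries at some steps.

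Members that are neighbours in the genome differed in how alike their patterns were. Foxf1, Foxc2 and Foxl1 lie on chromosome 8, with 28.0 kb between Foxf1 and Foxc2 and 9.05 kb between Foxc2 and Foxl1. Over 88 points (22 types in 4 libraries, log2(CPM + 1), centered within a library), Pearson's r was 0.50 for Foxf1 with Foxc2, 0.75 for Foxf1 with Foxl1 and 0.80 for Foxc2 with Foxl1. Foxf2 and Foxc1, 175 kb apart on chromosome 13, had an r of 0.64. For the paralogs on different chromosomes, r was 0.75 for Foxf1 with Foxf2, 0.80 for Foxc1 with Foxc2 and 0.97 for Foxa1 with Foxa2. These coefficients are descriptions, since types of 1 library share its depth and its free RNA.

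Of 13029 genes with a mean of at least 5 CPM in some type, those most alike to Foxa1 were Foxe1 (r = 0.98), a forkhead gene of thyroid and pharyngeal endoderm, and Gm12446 (r = 0.98). Foxa2 was most alike to Foxe1 (r = 0.97) and to 9030622O22Rik (r = 0.97), a noncoding gene 2.67 kb from it. For Foxi3 it was Prss22 (r = 0.93). Noncoding neighbours led for both Foxf genes: Fendrr, 1.28 kb from Foxf1, with r = 0.87, and 1700018A04Rik, 0.024 kb from Foxf2 on the opposite strand, with r = 0.97. Whether reads were split correctly between such close genes was not tested. Foxc1 was most alike to Cped1 (r = 0.90), Foxc2 to Foxd2os (r = 0.80), Foxd1 to Foxd2 (r = 0.95), and Foxl1 to Foxf2 (r = 0.85).

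Detection in the same cells was described after thinning to 5000 UMIs, library by library. In clusters 3, 21 and 11, Foxf1 was detected in 12.2%, 17.7%, 17.2% and 16.1% of the cells with a UMI of Foxf2, and in 4.78%, 4.33%, 5.03% and 6.96% of the others. The share with Foxf1 was thus higher among Foxf2 cells in all 4 libraries. Taken singly, each of these clusters held Foxf1 in at most 11.1% of its cells in any library. For Foxc2 among cells with Foxc1, in clusters 3, 11 and 1, the shares were 27.3%, 23.5%, 32.3% and 32.2%, against 20.6%, 22.5%, 26.6% and 27.0% of the others. These clusters differed in Foxc2, detected in 31.2% to 38.6% of the cells of cluster 3 and in at most 19.7% of cluster 1. Cells were pooled over the clusters for both pairs, and the part of the mix of clusters in these shares was not tested. Foxa1 and Foxa2 were too sparse for this measure, with 0, 0, 4 and 4 cells that held both after thinning. Other pairs of members were counted in the same way and are not given here.

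The genotypes were compared in each group with edgeR's quasi-likelihood test on summed counts, with the replicate as a block. The 10 members gave 97 tests over the 22 groups. Of these 1 was called at an adjusted p under 0.05, where 0.489% of the tests of all genes in these groups were called. At an unadjusted p under 0.05 the count was 21, which is 21.6% of the member tests against 6.21% of all gene tests. In 56 of the tests the value was lower in the cKO and in 41 it was higher, with a median log2 change of -0.06, and 62 (63.9%) had the same sign in both replicates, as did 51.2% of all gene tests. Across the 22 groups, the median change of all genes ranged from -0.0070 to 0.0078. The libraries of the genotypes did not overlap in 24 of the member tests (24.7%) and in 16.4% of all gene tests.

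The share of all genes that was called, which sets the scale for the members, was small in every group. It was 2.16% in the neural crest, 1.96% in cluster 2 and 1.92% in cluster 1. It was 0.683% in cluster 11, 0.68% in cluster 3, 0.437% in the pSHF, 0.391% in endothelium, 0.347% in MLP, 0.341% in BrM, 0.325% in paraxial mesoderm, 0.323% in cluster 14, 0.291% in the smaller MLP group and 0.241% in cluster 6. In the endoderm it was 0.19%, in endothelial progenitors 0.145%, in the otic vesicle 0.108%, in mesenchyme 0.0858%, in cardiac muscle 0.0181%, and 0% in the aSHF, neuronal cells, surface ectoderm and cluster 21. Over all kept cells together, 0 of the 10 members were called and 0 had an unadjusted p under 0.05, and 0.0597% of 20099 genes were called. With DESeq2 in place of edgeR, 0 of the member tests in a group were called. In sums over all cells, fewer cells of a type and less RNA per cell cannot be told apart.

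**Figure D4:**
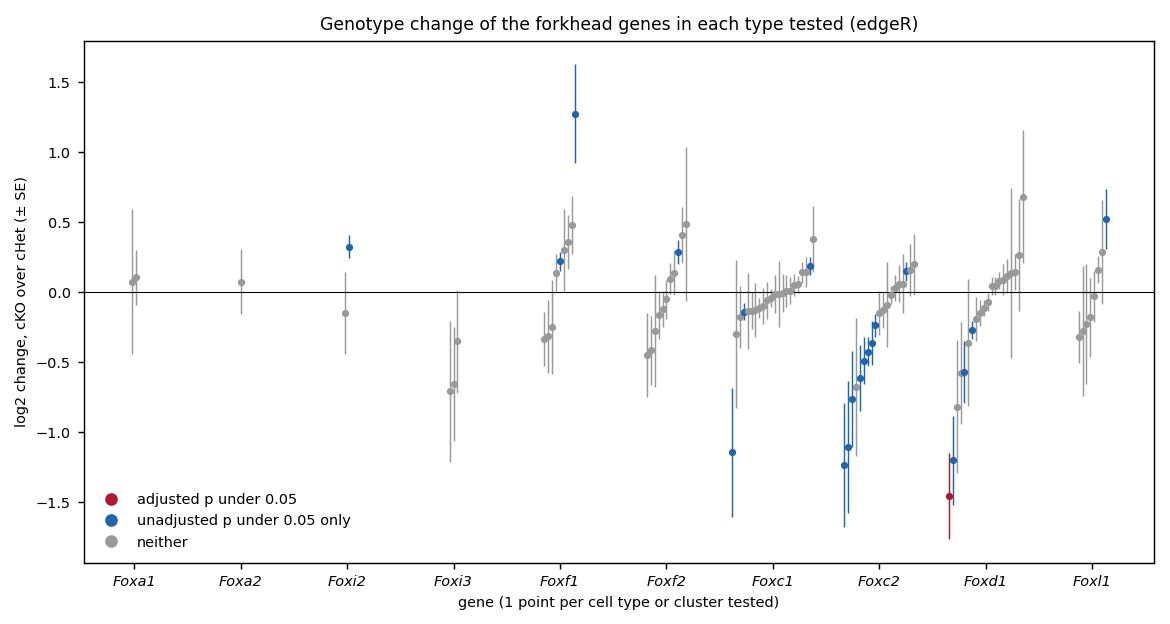
Log2 change of each forkhead gene in the cKO over the cHet (vertical axis, with SE), 1 point per cell type or cluster tested; red is an adjusted p under 0.05, blue an unadjusted p under 0.05 only, and grey neither. The single red point is Foxd1 in the neural crest-like cells at -1.46, and 8 of the 9 blue points of Foxc2 lie below 0.

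Foxa1 and Foxa2 were not called in the endoderm-like cells. Foxa1 was counted there at 29.9 (cHet) and 26.9 (cKO) CPM in Rep1 and, in Rep2, at 29.7 and 34.9 CPM (TMM-scaled, as are the CPM values of all genotype comparisons), a change of 0.11 ± 0.20 (log2, SE). For Foxa2 the values were 14.1 and 17.7 CPM in Rep1 and 21.1 and 20.7 CPM in Rep2, a change of 0.08 ± 0.23. The replicates differed in sign for both genes.

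Foxi2 in the surface ectoderm was counted at 119 (cHet) and 147 (cKO) CPM in Rep1 and, in Rep2, at 152 and 193 CPM. It was higher in the cKO library of each replicate, but the genotypes overlapped across replicates. The change was 0.33 ± 0.08 with an unadjusted p of 0.003623 and an adjusted p of 1.0 in a group where edgeR called 0 of 12688 genes and 418 had an unadjusted p under 0.05. Without 1 library it ranged from 0.11 (without cKO Rep2) to 0.52 (without cHet Rep2). Fits without 1 library had no replicate block, so the level difference between the replicates enters their values, here and below. Foxi3 was lower in the cKO library in 3 of 3 groups and both replicates. In the endoderm it was counted at 7.03 and 4.59 CPM in Rep1 and, in Rep2, at 7.02 and 4.38 CPM, so the genotypes did not overlap. The change was -0.66 ± 0.41 (adjusted p = 1.0), from as few as 7 UMIs in a library. Thinned to 5000 UMIs a cell, the endoderm held Foxi3 in 0 (cHet) and 1 (cKO) cells in Rep1 and in 3 and 8 cells in Rep2, or at 0 and 2.94 CPM and at 3.17 and 5.03 CPM, so that the cKO was then the higher one, at a level near that of 1 UMI in Rep1.

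Foxf1 in the pSHF was counted at 142.5 (cHet) and 156 (cKO) CPM in Rep1 and, in Rep2, at 186 and 227 CPM. The change was 0.22 ± 0.07 (adjusted p = 0.401), and the cKO was higher within both replicates. The fits with no replicate block gave -0.075 without cKO Rep2 and 0.47 without cKO Rep1. They hold the difference between the replicates, so their signs do not tell the direction of the genotype change. In cluster 21, of 45 to 124 cells a library, Foxf1 was at 7.05 and 13.9 CPM in Rep1 and, in Rep2, at 7.33 and 19.0 CPM. There the genotypes did not overlap, with a change of 1.27 ± 0.35 (adjusted p = 0.961), from 5 UMIs in the lowest library. Foxf2 in cluster 3 was at 28.5 and 30.3 CPM in Rep1 and, in Rep2, at 42.5 and 56.1 CPM (0.29 ± 0.09, adjusted p = 0.224). It was thus higher in the cKO within both replicates. The fits with no replicate block gave -0.24 without cKO Rep2 and 0.66 without cKO Rep1, with the same limit. Foxl1 in cluster 2 was at 3.45 and 5.43 CPM in Rep1 and, in Rep2, at 3.64 and 4.93 CPM (0.52 ± 0.21, adjusted p = 0.322). None of these 4 passed the adjustment over all genes.

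Foxc1 in cluster 3, its highest group, was counted at 112 (cHet) and 124 (cKO) CPM in Rep1 and, in Rep2, at 115 and 134 CPM. The change of 0.19 ± 0.06 did not pass the adjustment (adjusted p = 0.28). In cluster 6 the change was -0.14 ± 0.06 (adjusted p = 0.677), and it ranged from -0.28 (without cKO Rep2) to -0.013 (without cKO Rep1). In the otic vesicle it was -1.14 ± 0.46 (adjusted p = 0.786), with 13.2 and 2.26 CPM in Rep1 and 4.75 and 3.83 CPM in Rep2, so that cHet Rep1 stood apart. The Rep1 cells were mostly of cluster 25 and the Rep2 cells mostly of cluster 20. Without cHet Rep1 it was -0.56, and without any other -1.13 to -2.02.

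Foxc2 was the member with the most tests at an unadjusted p under 0.05, 9 of 19 (47.4%, against 6.21% of all gene tests), and none passed the adjustment (lowest adjusted p = 0.146). In 13 of the 19 groups it was lower in the cKO, with a median log2 change of -0.15, and in 14 the replicates had the same sign, as in 51.2% of all gene tests. In cluster 6, led by Cyp26a1, Vcam1 and Hoxa2, Foxc2 was counted at 19.6 (cHet) and 13.9 (cKO) CPM in Rep1 and, in Rep2, at 23.7 and 18.2 CPM. The genotypes did not overlap there, and the change was -0.42 ± 0.11 (-0.65 to -0.26 without 1 library). In cluster 1, led by Foxd2os and Cyp26a1, it was at 45.5 and 36.9 CPM in Rep1 and, in Rep2, at 40.9 and 36.1 CPM, again without overlap (-0.24 ± 0.08, adjusted p = 0.153). The values in the aSHF were 10.6 and 6.56 CPM in Rep1 and 13.01 and 10.1 CPM in Rep2 (-0.49 ± 0.17, adjusted p = 1.0), with -0.85 to -0.23 without 1 library.

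Foxc2 was lower at an unadjusted p under 0.05 in 5 further groups at low levels. Its mean was under 15 CPM in 12 groups. There cHet Rep1 was the highest library in 6, cHet Rep2 in 4 and each cKO library in 1. Barcodes with under 1000 genes held Foxc2 at 19.5 to 29.15 CPM. The part of free RNA in the low levels was not tested. In mesenchyme-like cells it was at 7.88 and 6.08 CPM in Rep1 and, in Rep2, at 7.93 and 6.21 CPM (-0.36 ± 0.16), and in the smaller MLP-like group at 4.60 and 1.95 CPM and at 4.51 and 2.19 CPM (-1.10 ± 0.47). In the BrM-like cells, cluster 14 and the neuronal-like cells the changes were -0.61 ± 0.24, -0.76 ± 0.34 and -1.23 ± 0.44, and cHet Rep1 was the highest library in each. Without cHet Rep1 the fits with no replicate block turned the sign in BrM (0.13) and in neuronal cells (1.05), and gave -0.48 in cluster 14. Without any other library these changes were -1.30 to -0.17, -2.48 to -0.76 and -1.38 to -0.51. Within Rep2, before TMM scaling, Foxc2 was at 2.51 (cHet) and 1.73 (cKO) CPM in BrM and at 1.57 and 1.53 CPM in neuronal cells. In the groups where Foxc2 was highest it did not go the same way. The change was -0.02 ± 0.07 in cluster 3, 0.06 ± 0.13 in cluster 21, 0.03 ± 0.09 in cluster 11 and 0.15 ± 0.07 in cluster 2. Of the Foxc2 tests at an unadjusted p under 0.05, only that of cluster 2 was higher in the cKO.

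Foxd1 in the neural crest-like cells was the 1 called test among the members. It was counted at 74.5 (cHet) and 22.6 (cKO) CPM in Rep1 and, in Rep2, at 24.8 and 13.2 CPM, so that cHet Rep1 stood above the other 3 libraries. The change was -1.46 ± 0.31 with an adjusted p of 0.000329, in a group where 2.16% of 9075 genes were called. The group held 184 (Rep1 cHet), 45 (Rep1 cKO), 24 (Rep2 cHet) and 47 cells (Rep2 cKO), with a median depth of 10754.5 UMIs in cHet Rep1 and of 22581 to 32711 in the others. Without cHet Rep1 the change was -0.43, in a fit with no replicate block that sets cHet Rep2 against the cKO of both replicates. Within Rep2 the cKO was lower, at 13.2 against 24.8 CPM. With doublets kept the change was -0.35 (adjusted p = 0.68). The call was also lost without cKO Rep1 (-1.96), without cKO Rep2 (-1.19), without the block (-1.53) and with DESeq2 (-1.32).

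The neural crest markers of these cells also differed by library. In cHet Rep1, Sox10 was at 8.02 CPM against 15.7 to 22.2 CPM in the others, Tfap2b at 20.7 against 98.7 to 157 CPM, and Dlx2 at 15.03 against 64.4 to 94.8 CPM. Foxd3, a forkhead gene of early neural crest, was at 1.00 against 8.58 to 24.7 CPM. Another marker, Ets1, was at 45.1 CPM in cHet Rep1 and at 33.3 to 77.8 CPM in the others. The part of these differences in the Foxd1 call was not tested.

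Low levels of Foxd1 also followed a library. In 10 groups its mean was under 15 CPM, and cHet Rep1 was the highest library in 7 of them. In the barcodes of under 1000 genes, which held 7.89% of the UMIs of cHet Rep1 and 0.896% to 1.01% of the others, Foxd1 was at 95.9 to 123 CPM. In the aSHF it was at 9.81 (cHet) and 3.28 (cKO) CPM in Rep1 and, in Rep2, at 2.21 and 1.43 CPM (-1.20 ± 0.32, adjusted p = 0.893). This was called with no filter on low counts (adjusted p = 0.009765). Without cHet Rep1 the fit with no replicate block gave 0.056, though within Rep2 the cKO was the lower library. In the BrM-like cells it was at 20 and 9.28 CPM in Rep1 and, in Rep2, at 5.14 and 4.99 CPM (-0.57 ± 0.22, adjusted p = 0.498). There the fit with no replicate block gave 0.46 without cHet Rep1, while the Rep2 libraries were nearly alike. Before TMM scaling the neuronal-like cells of Rep1 held 53.9 (cHet) and 22.8 (cKO) CPM of Foxd1, and those of Rep2 at most 3.57 CPM. The part of free RNA in these values was not tested. In cluster 6, one of its higher groups, Foxd1 was at 88.3 and 75.5 CPM in Rep1 and, in Rep2, at 82.6 and 67.1 CPM, without overlap (-0.27 ± 0.06, adjusted p = 0.102).

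**Figure D5:**
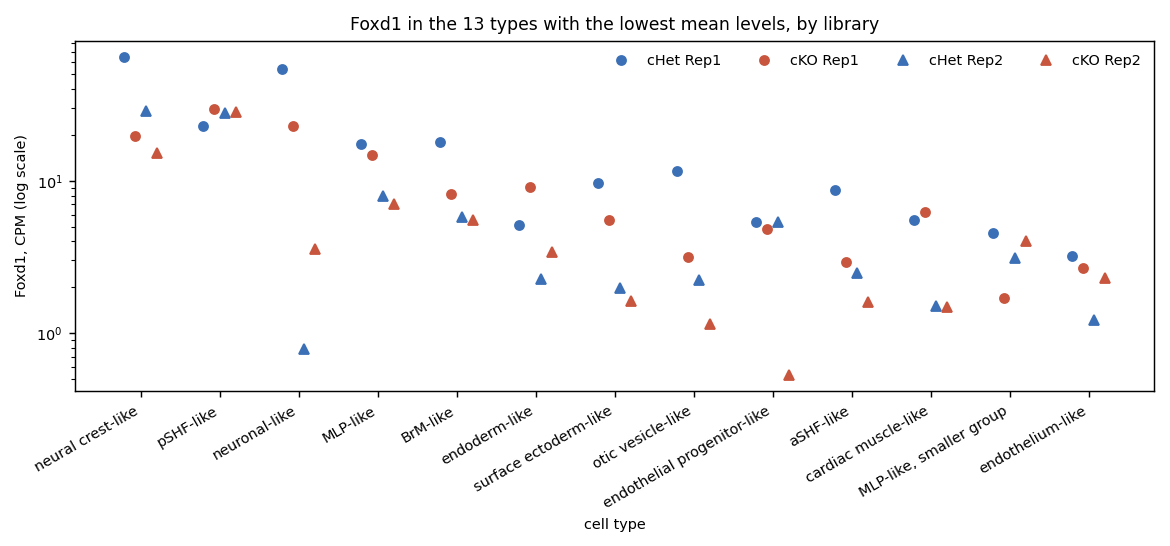
Foxd1 CPM (log axis) in the 13 cell types with its lowest mean levels; points are the 4 libraries, by color for genotype and by shape for replicate. In many types, such as surface ectoderm (9.6 CPM against 1.61 to 5.50 CPM) and otic vesicle (11.5 CPM against 1.15 to 3.16 CPM), cHet Rep1 is the highest point.

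The difference between groups in the response to genotype was tested in 22 cases, for the members in 4 pairs of types, and 1 was called. Foxd1 in the pSHF (22.7, 29.4, 27.8 and 28.1 CPM without TMM scaling) minus the aSHF (8.66, 2.94, 2.50 and 1.60 CPM) gave 1.41 ± 0.30 (adjusted p = 0.001063), a pair in which 0.694% of all genes were called. The aSHF value of cHet Rep1 was the one that stood apart. Without that library the difference was 0.24, in a fit that left out the difference between the replicates. Within Rep2 the aSHF value was also lower in the cKO. Leaving out any other library kept the sign, at 1.02 to 2.33, and lost the call. For endoderm minus ectoderm, otic vesicle minus ectoderm and otic vesicle minus endoderm no member was called, among 7, 4 and 5 tested, where 0.0913%, 0.251% and 0.234% of all genes were. At an unadjusted p under 0.05 these pairs gave 0, 1 and 2 members, against 2.76%, 5.05% and 3.92% of all genes.

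Of the 34 other forkhead genes in the files, 22 could be tested in some group. In 317 tests, 3 were called higher and 1 lower in the cKO (1.26%, against 0.489% of the tests of all genes in these groups). Foxp2, a paralog of Foxp1 known from brain and lung, rose in cluster 14 (0.58 ± 0.08, adjusted p = 0.000837), with 159 (cHet) and 226 (cKO) CPM in Rep1 and 134 and 210.1 CPM in Rep2. It also rose in cluster 2 (0.29 ± 0.07, adjusted p = 0.01302). The other 2 calls were in the neural crest-like cells, where 2.16% of all genes were called and cHet Rep1 stood apart. There Foxd3 was higher by 2.66 ± 0.50 (adjusted p = 3.457e-05), and the change of Foxp1 was -0.75 ± 0.19 (adjusted p = 0.006931). Foxp1 was at 169 CPM in cHet Rep1 and at 73.2 to 79.4 CPM in the other 3 libraries, so Rep2 showed almost no difference.

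Of 17 genes of the Hedgehog pathway, 16 were tested, and in 287 tests 3 were called higher and 0 lower (1.05%, against 0.489% for all genes). Shh, the ligand, was found in the endoderm-like cells at 8.20 to 30.9 CPM. The pathway targets Ptch1 and Gli1 were highest in the same groups as the Foxf genes and Foxl1, with Ptch1 at 368 to 625 CPM in cluster 3 and Gli1 at 14.6 to 25.8 CPM in the pSHF. The called genes were the co-receptors Gas1, in cluster 1 (0.30 ± 0.07, adjusted p = 0.001157) and the otic vesicle, with its 2 clusters (0.57 ± 0.08, adjusted p = 0.007857), and Cdon, in the otic vesicle (0.46 ± 0.09, adjusted p = 0.04825). None of the 3 calls was in the pSHF or cluster 3, the groups with the most Foxf1, Foxf2 and Foxl1. In cluster 3, 13 of 14 pathway genes had lower values in the cKO. There 8 had an unadjusted p under 0.05, 7 lower and 1 higher in the cKO, against 7.82% of all genes, and the median log2 change was -0.21. None passed the adjustment (lowest adjusted p = 0.149, for Gas1, with a change of -0.41 ± 0.11). The 1 higher gene was Hhip (0.27 ± 0.09). The targets Ptch1 (-0.04 ± 0.07) and Gli1 (-0.21 ± 0.11) were not among the 8. In the pSHF 1 of 14 had an unadjusted p under 0.05, against 5.35% of all genes, and the median was -0.016. It was Ptch1, with a change of -0.22 ± 0.06 (adjusted p = 0.204).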

How the data were processed

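The authors ran Cell Ranger and deposited its raw UMI counts, before the SoupX step of the study. The labels name Cell Ranger 8.0.1 and build mm10, and the count files name 7.0.1 for Rep1 and 8.0.1 for Rep2. Positions came from GENCODE M21 (GRCm38), in which 32158 of 32285 gene identifiers were found.

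Filters on barcodes were a minimum of 3000 genes, a maximum of 10% mitochondrial and 5% hemoglobin UMIs, and removal of the highest doublet scores. The score was the share of simulated doublets among neighbours, after Scrublet, and 3.93% to 5.43% were called, the share expected for each kit within ties. Variable genes (2000, forkhead genes left out) were reduced to 30 principal components, soft clustering aligned the replicates, and a graph of 20 neighbours was partitioned by Leiden (leidenalg 0.10.2, resolution 0.8). A cluster was named where at least 3 markers of a type were found in 10% of its cells and were 2-fold higher than elsewhere. Names were given to 18684 of 33469 cells.

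Counts were summed per library and group. Genotypes, types and their interaction were tested with edgeR 4.0.16 (quasi-likelihood, TMM, filterByExpr) in R 4.3.3, with DESeq2 1.42.0 as an alternative, and checked on simulated data. The replicate number marks the kit, so it was a block, and libraries of 1 replicate deviated together from the genotype means (correlation 0.61 to 0.82 over the groups). The rule for named genes took all 10 members in each group where they are counted. The text gives each in its leading groups and in every group with an unadjusted p under 0.05, and some other groups only in counts and the heat map. The 3 genes most alike to each were set by correlation, and some genes are not reported here. The members, lists and tests were chosen with earlier results of these data known. Counts of 0 and intervals cover counting error only. Alternatives were the tool, the block, the low-count filter, leaving out each library, doublets, genes per cell, thinning and clustering with forkhead genes.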

Additional observations from a re-analysis of the deposited data

Results flagged for a closer look

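The response of Foxd1 to genotype differed between the pSHF-like and aSHF-like cells, by 1.414 on the log2 scale (pSHF minus aSHF, edgeR interaction term, adjusted p = 0.001063). Before TMM scaling the aSHF held 75 UMIs of Foxd1 in cHet Rep1 and 17 to 26 in the other libraries, while the pSHF was at 22.7 and 27.8 CPM in the cHet and at 29.4 and 28.1 CPM in the cKO. After TMM scaling the genotypes overlapped in the pSHF, at 25.8 and 24.7 CPM (cHet) and 32.9 and 24.98 CPM (cKO). Without cHet Rep1 the difference was 0.24, in a fit that left out the difference between the replicates, and its source was not tested.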

How the results depend on the processing

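Member calls per group, 1 as reported, numbered 0 with DESeq2, 0 with no replicate block, 0 with cells thinned to 5000 UMIs, 2 with no filter on low counts (Foxd1 in the aSHF was added), 3 with doublets kept (Foxi2 in surface ectoderm, Foxc2 and Foxd1 in cluster 6), and 0 to 1 without 1 library. Calls over all genes, 1327 as reported, numbered 113 with DESeq2, 0 with no replicate block, 2870 with no filter, 453 after thinning, and 0 to 99 without 1 library. The response call, 1 as reported, numbered 0 with DESeq2, 0 with no replicate block and 0 without any 1 library. With doublets kept, the calls over all genes are not given here, so the 3 member calls lack that scale. Calls with a lower minimum of genes per cell are not given either. The Foxi3 level in endoderm was 5.78 CPM and 2.79 CPM after thinning. Foxd1 in cluster 3 was at 438 CPM and at 416 CPM with forkhead genes in the clustering. That clustering kept 85.1% of cells in their type. Fits without 1 library had no replicate term, and the lone library of a genotype was assumed to vary like the others. The difference between the replicates, which also differ in kit, thus enters their values and can turn a sign. Foxf1 in the pSHF and Foxf2 in cluster 3 turned in such fits, although the cKO was higher within both replicates. Of 28 single results under 292 alternatives, 259 kept direction and side of the threshold, 13 lost the call, 5 gained one and 15 reversed, 14 of these without 1 library. Foxi3 in endoderm did not pass the low-count filter after thinning, so the turn of its thinned levels is not in this count. Foxc2 in cluster 3 turned from -0.02 to 0.0095 with forkhead genes in the clustering. Without 1 library the log2 changes ranged from -0.15 to 0.22 for Foxa1 and from -0.13 to 0.46 for Foxa2 in endoderm, from -0.075 to 0.47 for Foxf1 in pSHF, from -0.24 to 0.66 for Foxf2, -0.067 to 0.019 for Foxc2, -0.10 to 0.18 for Foxd1 and -0.029 to 0.31 for Foxl1 in cluster 3, from -1.30 to 0.13 for Foxc2 and -1.51 to 0.46 for Foxd1 in BrM, from -2.48 to 1.05 for Foxc2 in neuronal cells, and from -2.10 to 0.056 for Foxd1 in aSHF. The causes were not tested. Each genotype had 2 libraries, and groups held as few as 24 cells in a library. The Foxi3 change in endoderm rested on 7 to 35 UMIs a library and had an SE of 0.41.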

Other observations

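Cluster 24, led by the neural genes Hes5, Rfx4, Fgf14 and Fabp7, was found almost only in Rep1, with 76 cells in cHet, 148 in cKO, 2 in cHet Rep2 and 0 in cKO Rep2, and was not compared between genotypes. Foxa2, which also acts in the floor plate of the neural tube, had 24 UMIs in its cHet Rep1 cells (17.0 CPM, in 9 cells) and 15 UMIs in its cKO Rep1 cells (4.59 CPM, in 7 cells). Foxa1 had 0 and 1 UMIs there.

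Of the 34 other forkhead genes, the leading group overlapped the next in 27 and stood apart in 7, of which 3 are given. Foxe1 was found at 56.9 to 97.5 CPM in endoderm-like cells and at no more than 0.384 CPM in the next group, the endothelium. Foxl2 was at 48.1 to 90.5 CPM in BrM-like cells and next in endoderm at no more than 25.9 CPM. Foxo1, at 77.3 to 134.7 CPM in endothelium, was above endothelial progenitors, at no more than 65.0 CPM.

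Among 116 genes within 500 kb of a member that are not members, 44 were tested in 659 cases, and 1 was called, against 0.489% of the tests of all genes (0.347% in MLP-like cells). It was Slc25a21 in MLP-like cells, lower in the cKO by 1.13 on the log2 scale (adjusted p = 0.04866), with 7.15 and 2.45 CPM in Rep1 and 3.77 and 2.14 CPM in Rep2. The noncoding neighbours most alike to members were not called in the members' leading groups, with changes of -0.11 ± 0.10 for Fendrr in the pSHF and 0.35 ± 0.08 (adjusted p = 0.067) for 1700018A04Rik in cluster 3.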
